A study of Lens culinaris with 18 samples.

Results

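The genes Lcu.2RBY.6g038150 and Lcu.2RBY.6g038160 are a pair of vicilin genes of lentil (*Lens culinaris*) with consecutive identifiers on chromosome 6. They were taken by identifier from the study's own list of 16 vicilin genes, and they are 2 of the 58243 genes counted in each library. The study compared M11, a natural lentil line that carries a mutated, stop-gained allele of *LcLTP3b*, the gene of the lipid transfer protein allergen Len c3, with the cultivars CDC Redmoon and CDC Gold, named Redmoon and Gold here. Polyadenylated RNA came from dissected embryos and from seed coats with the endosperm attached (called seed coat here) of mature green seeds, with 3 libraries for each line and tissue, which made 18 libraries in 6 groups. The lines are different germplasm, so that the *LcLTP3b* allele and the rest of the genetic background cannot be told apart. Whether replicate libraries stem from different plants is not stated in the sources used here, so the errors and p-values measure the spread between these libraries, which may be technical.

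Vicilins are storage globulins of legume seeds. They are made in the maturing embryo, mostly in the cotyledons, packed into protein storage vacuoles and broken down during germination as a source of nitrogen and carbon, and they are encoded by families of similar genes. Another lentil allergen, Len c1, is a vicilin. The individual functions of the 2 genes are not annotated in the sources used here, and no sequence or gene length was at hand, so a level of one gene is not compared with that of the other except as a ratio that is followed from group to group.

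The total count per library lay between 19158437 and 20115328 for M11 embryos, and between 16002051 and 19677433 for Redmoon embryos. Gold embryos had 20805496 and 22958727 counts in replicates 1 and 2 but 3270275 in replicate 3, the shallowest library of the series. The seed coat totals lay between 5907695 and 6691125 for M11, 7571791 and 11655232 for Redmoon, and 21171045 and 24309401 for Gold. The biological coefficient of variation ran from 2.69% in M11 embryos to 9.39% in Gold embryos, and no 2 replicates were so close that counting error alone could cover their difference. The cultivar labels of the tissues went against each other. Of the genes counted, 116 were on in all libraries of 1 cultivar (at least 2 CPM, counts relative to the library total) and off in those of the other (at most 0.1 CPM) in both tissues. All 116 were on in opposite cultivars in the tissues, and 0 were on in the same cultivar. Whether Redmoon and Gold were exchanged in embryos or in seed coat cannot be told from these data. Redmoon and Gold below therefore mean the libraries so labelled. The differences of the pair between the tissues of a cultivar are also given with the cultivar labels of seed coat exchanged. Those values are named by the embryo label. Had the embryo labels been exchanged instead, the same values would stand with the 2 cultivar names swapped.

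The pair was lower in M11 than in both cultivars, in both tissues. In embryos the difference was about 5- to 6-fold against Redmoon and about 11-fold against Gold, and in seed coat it was about 9-fold against Redmoon and 2-fold against Gold. Levels are given as CPM after TMM scaling of the 9 libraries of a tissue, a scaling that assumes that most genes do not differ between libraries. Tests are edgeR's quasi-likelihood tests with p-values adjusted after Benjamini and Hochberg across every gene of the fit, and a gene was called at an adjusted p under 0.05.

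In embryos, 6g038150 had 3970, 3872 and 3922 CPM in M11 libraries, against 21035, 20234 and 21635 CPM in Redmoon and 43417, 41627 and 45747 CPM in Gold. The M11 libraries lay closely together and far below every cultivar library, and all Redmoon libraries lay below all Gold libraries. The means were 3921 ± 49.1 CPM in M11, 20968 ± 703 CPM in Redmoon and 43597 ± 2066 CPM in Gold (SD, n = 3 each). The level of M11 was 5.35-fold below that of Redmoon (log2 fold change −2.42, SE 0.06, adjusted p = 7.22e-21) and 11.1-fold below that of Gold (−3.47, SE 0.06, adjusted p = 2.51e-24). Between the cultivars it was 2.08-fold lower in Redmoon than in Gold (−1.06, SE 0.06, adjusted p = 6.39e-14).

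Its partner 6g038160 had 3861, 3717 and 3729 CPM in M11 embryos, 23597, 22836 and 24940 CPM in Redmoon embryos and 40028, 37468 and 41361 CPM in Gold embryos. The order of the lines was that of 6g038150, again with no overlap between groups. The means were 3769 ± 80.0 CPM in M11, 23791 ± 1065 CPM in Redmoon and 39619 ± 1978 CPM in Gold (SD, n = 3 each). It was 6.31-fold lower in M11 than in Redmoon (−2.66, SE 0.06, adjusted p = 2.04e-21) and 10.5-fold lower than in Gold (−3.39, SE 0.07, adjusted p = 5.91e-24). Between the cultivars it was 1.67-fold lower in Redmoon (−0.74, SE 0.06, adjusted p = 1.07e-10). Without the shallow Gold replicate 3, the log2 fold changes of M11 against Gold were −3.44 for 6g038150 and −3.36 for 6g038160.

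**Figure D1:**
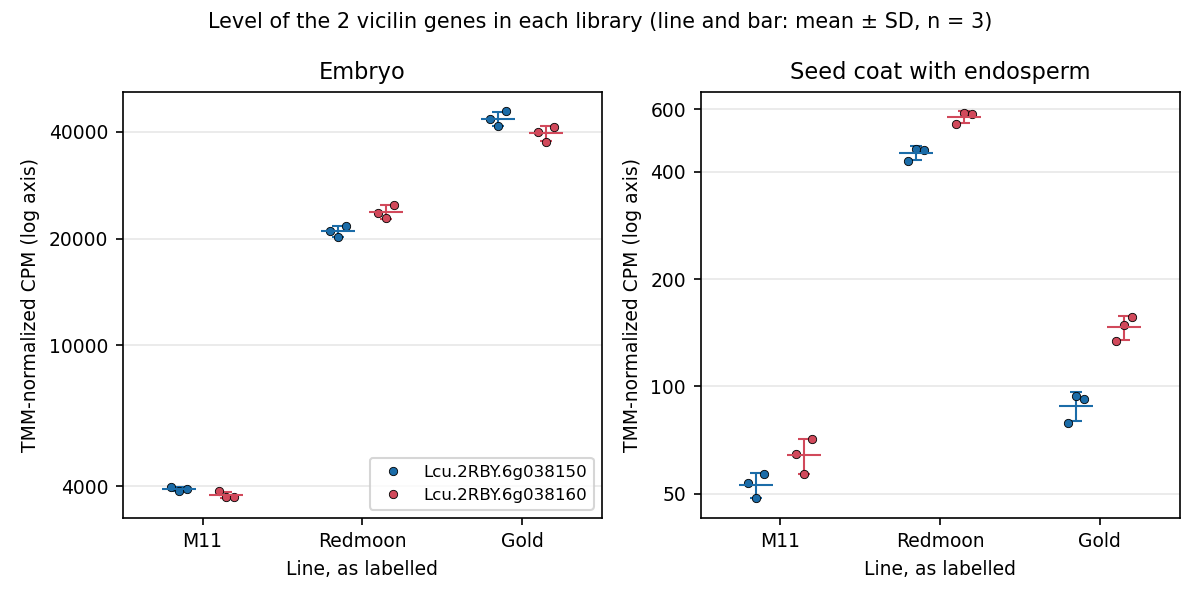
Level of 6g038150 (blue) and 6g038160 (red) in each library of M11, Redmoon and Gold, as TMM-normalized CPM on a log axis, in embryos (left) and in seed coat with endosperm (right), whose axes cover different ranges. Points are libraries, and lines and bars are the mean ± SD (n = 3). M11 is lowest for both genes in both tissues, whereas Gold is highest in embryos and Redmoon is highest in seed coat.

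In embryos both genes were among the most abundant of each library. By raw count, 6g038150 ranked 16 among all genes in every M11 embryo library, and between 9 and 10 in the Redmoon and the Gold libraries. The rank of 6g038160 was 17 in M11 embryos, 7 to 8 in Redmoon and 11 to 13 in Gold. Of all embryo counts, the pair took 1.19% ± 0.009 for M11, 4.45% ± 0.162 for Redmoon and 5.40% ± 0.272 for Gold (SD, n = 3 each).

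The size of the embryo difference depended on the scaling. The 10 most abundant genes of a library held 16.2% to 16.5% of its counts in M11 embryos, 38.04% to 39.05% in Redmoon and 42.1% to 44.8% in Gold. With library totals as the only scaling, 6g038150 had 6080 ± 20.04 CPM in M11, 20834 ± 660 CPM in Redmoon and 28303 ± 1485 CPM in Gold, and its log2 fold changes were −1.78 against Redmoon and −2.22 against Gold. The corresponding values of 6g038160 were −2.02 and −2.14. Under that scaling the median of all genes tested moved to 0.64 in M11 against Redmoon and to 1.26 against Gold, from values within 0.01 of 0, and relative to these medians the genes were about as low as under TMM.

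Reads that match both genes could be split between them, and how the authors counted such reads is not given in the sources used here. The sum of both rows, which does not depend on how reads are split between them, was 5.82-fold lower in M11 than in Redmoon embryos (−2.54, SE 0.06, adjusted p = 3.73e-21) and 10.8-fold lower than in Gold embryos (−3.44, SE 0.06, adjusted p = 3.79e-24). The sum can still depend on reads that were left uncounted or shared with other vicilin genes, which was not tested. Both members were among the 32.1% of 18623 genes called lower in M11 than in Redmoon embryos, and among the 37.1% called lower than in Gold. The lines differed in a large part of all genes, with 11842 of 18623 called against Redmoon and 13779 against Gold, which strains the assumption of TMM. A call alone therefore does not set the pair apart. How many other genes had groups without overlap was not counted in either tissue, so that does not set the pair apart either. Of all genes tested, 4.43% had a lower fold change than 6g038150 and 3.92% a lower one than 6g038160 against Redmoon. Against Gold these shares were 4.61% and 4.73%. Between the cultivars, both were among the 27.4% of genes called lower in Redmoon than in Gold embryos.

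In seed coat the levels were much lower, and by the labels as deposited Redmoon stood above Gold, the opposite of embryos. Exchanged seed coat labels would give the cultivars the order of embryos. The M11 libraries had 53.5, 48.5 and 56.7 CPM of 6g038150, the Redmoon libraries 429, 465 and 462 CPM and the Gold libraries 78.9, 93.8 and 92.4 CPM. No group overlapped another, but the step between M11 and Gold was small beside that to Redmoon. The means were 52.9 ± 4.16 CPM in M11, 452 ± 19.7 CPM in Redmoon and 88.4 ± 8.22 CPM in Gold (SD, n = 3 each). Behind these means stood 326 to 402 counts per library for M11, 3299 to 5113 for Redmoon and 1850 to 2257 for Gold. The gene was 8.53-fold lower in M11 than in Redmoon (−3.09, SE 0.06, adjusted p = 3.31e-48) and 1.67-fold lower than in Gold (−0.74, SE 0.06, adjusted p = 5.49e-16).

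For 6g038160 the seed coat levels were 64.5, 56.7 and 71.1 CPM in M11, 545, 584 and 580 CPM in Redmoon and 134, 149 and 156 CPM in Gold. The groups did not overlap, and their order was that of 6g038150. The means were 64.1 ± 7.24 CPM in M11, 570 ± 21.3 CPM in Redmoon and 146 ± 11.6 CPM in Gold (SD, n = 3 each), from 381 to 504, 4146 to 6422 and 3137 to 3822 counts in these lines. It was 8.87-fold lower in M11 than in Redmoon (−3.15, SE 0.06, adjusted p = 2.85e-49) and 2.28-fold lower than in Gold (−1.19, SE 0.06, adjusted p = 1.61e-26). The sum of the pair was 8.72-fold lower in M11 than in Redmoon (−3.12, SE 0.05, adjusted p = 9.74e-51) and 2.01-fold lower than in Gold (−1.004, SE 0.05, adjusted p = 4.16e-25).

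Both members were among the 34.2% of 19386 genes called lower in M11 than in Redmoon seed coat and among the 36.9% called lower than in Gold. The size of the difference from Gold was nearer to the middle of all genes, of which 20.4% had a lower fold change than 6g038150 and 13.6% a lower one than 6g038160. Against a threshold of at least 1 on the log2 scale, the difference from Gold seed coat passed for 6g038160 (adjusted p = 0.00149) but not for 6g038150 (adjusted p = 1) or for the sum (adjusted p = 0.785). Between the cultivars, 6g038150 was 5.11-fold higher in Redmoon than in Gold seed coat (2.35, SE 0.05, adjusted p = 5.07e-47) and 6g038160 was 3.89-fold higher (1.96, SE 0.05, adjusted p = 1.73e-43), as were 32.6% of all genes by call. In embryos both genes had been lower in Redmoon than in Gold. As M11 lay below both cultivars in each tissue, an exchange of the cultivar labels would not turn round any of the 4 differences of M11.

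Each member was far higher in embryo than in seed coat of the same label. The fit of all 18 libraries gave 145-fold higher levels of 6g038150 in M11 embryos than in M11 seed coat (log2 fold change 7.18, SE 0.09, adjusted p = 2.06e-57). In Redmoon the gene was 90.7-fold higher in embryos (6.50, SE 0.08, adjusted p = 4.6e-57) and in Gold 907-fold (9.82, SE 0.09, adjusted p = 6.87e-63). For 6g038160 the embryo level was 115-fold that of seed coat in M11 (6.85, SE 0.09), 81.7-fold in Redmoon (6.35, SE 0.08) and 497-fold in Gold (8.96, SE 0.09), with adjusted p of 2.01e-56, 2.73e-56 and 1.85e-61. Among all 22081 genes of that fit, 39.9% were called higher in embryo in M11, 43% in Redmoon and 39.6% in Gold. Of the 14 other vicilin genes, 14 were called higher in M11, and 13 higher and 1 lower in both Redmoon and Gold. Their medians were 6.38, 6.05 and 8.79 in M11, Redmoon and Gold, so differences of this size were not particular to the pair. With the seed coat labels exchanged, the Redmoon embryos against Gold-labelled seed coat gave 8.81 for 6g038150 and 8.26 for 6g038160, and the Gold embryos against Redmoon-labelled seed coat gave 7.52 and 7.05. The size of these differences depended on the scaling. With library totals alone, the log2 fold changes of embryo over seed coat were 6.76, 5.61 and 8.32 for 6g038150 in M11, Redmoon and Gold, and 6.43, 5.46 and 7.45 for 6g038160, while the median of all genes moved to −0.35, −0.81 and −1.52. By the labels as deposited the tissue difference was smaller in Redmoon than in M11 and larger in Gold under either scaling. With the labels exchanged as well as library totals, the values were 7.88 and 7.33 for Redmoon embryos and 6.05 and 5.58 for Gold embryos, so that Redmoon embryos gave a larger difference than M11 under either scaling, whereas Gold embryos gave a larger one under TMM (for 6g038160 not beyond the threshold of the interaction test given below) and a smaller one under library totals.

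The seed coat level of the pair was set beside that of the 14 other vicilin genes, each as a share of its embryo level. As CPM of library totals, the pair in seed coat was at 1.04% of its embryo level in M11, and the other 14 genes together at 1.55% of theirs. In Redmoon these shares were 2.17% and 2.19%, and in Gold 0.435% and 0.524%. Under exchanged labels they were 0.529% and 0.529% for Redmoon embryos with Gold-labelled seed coat, and 1.79% and 2.17% for Gold embryos with Redmoon-labelled seed coat. The part of embryo RNA in the seed coat levels was not tested, and the same holds for the difference of the seed coat groups from each other.

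An interaction term in the fit of all libraries, embryo minus seed coat, asked whether M11 differed from a cultivar by the same amount in each tissue. Against Redmoon, the difference was less negative in embryos by 0.68 for 6g038150 (SE 0.10, adjusted p = 7.71e-08), by 0.49 for 6g038160 (SE 0.10, adjusted p = 3.92e-05) and by 0.59 for their sum (SE 0.10, adjusted p = 1.18e-06). Against Gold it was more negative in embryos, by −2.64 (SE 0.10, adjusted p = 2.77e-30), −2.11 (SE 0.10, adjusted p = 6.57e-26) and −2.34 (SE 0.10, adjusted p = 1.82e-28) for 6g038150, 6g038160 and their sum. The direction of the Redmoon interaction was that of 20.5% of all genes by call and that of the Gold interaction was that of 27.2%. Of the 14 other vicilin genes, 6 were called higher, 3 lower and 5 not called in the Redmoon interaction (median 0.50). In the Gold interaction 9 were called lower, 2 higher and 3 not called (median −2.37). Interactions of this size were thus not particular to the pair. These values rest on the cultivar labels. With the seed coat labels exchanged, the interaction with Redmoon turned round to −1.63, −1.41 and −1.48 for 6g038150, 6g038160 and their sum (adjusted p = 1.59e-20, 4.27e-18 and 2.08e-19), and the interaction with Gold shrank to −0.34, −0.20 and −0.27 (adjusted p = 0.00403, 0.0968 and 0.0203). The sign of this last interaction depended on the scaling too, since with exchanged labels and library totals alone it was 0.71, 0.85 and 0.78 (adjusted p = 1.01e-08, 6.12e-11 and 4.09e-10), beside a median of 0.95 over all genes.

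The balance within the pair is free of library scaling, since both genes are counted in the same library. It is given as the log2 ratio of the counts of 6g038150 over those of 6g038160, in which gene length cancels between groups. This ratio can depend on how reads that match both genes were counted, which was not tested. In embryos it was 0.040, 0.059 and 0.073 in M11 libraries, −0.166, −0.175 and −0.205 in Redmoon and 0.117, 0.152 and 0.145 in Gold. Thus 6g038150 had slightly more counts than its partner in every M11 and Gold embryo library and slightly fewer in every Redmoon one. The means were 0.057 ± 0.016 in M11, −0.182 ± 0.021 in Redmoon and 0.138 ± 0.018 in Gold (SD, n = 3 each), and the counting error of the ratio in a single embryo library was at most 0.0067.

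In seed coat the log2 ratio was below 0 in all 9 libraries. It was −0.270, −0.225 and −0.326 in M11, −0.345, −0.330 and −0.329 in Redmoon and −0.762, −0.670 and −0.760 in Gold. Gold seed coat stood apart, with 0.603 ± 0.022 counts of 6g038150 for each count of 6g038160, against 0.827 ± 0.029 in M11 and 0.793 ± 0.005 in Redmoon (SD, n = 3 each). The 3 lines differed in the ratio in embryos and in seed coat (exact permutation test of the F statistic over 3 lines, p = 0.00357 in each tissue, the smallest p that 9 libraries in groups of 3 allow).

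Compared in pairs of groups, the ratios never overlapped. All 9 comparisons gave p = 0.1 in the exact two-sided permutation test, which is the smallest p it allows for 3 libraries against 3 (adjusted p = 0.1). Ratios of other gene pairs were not tested, so the separation is not shown to be particular to this pair. The difference between M11 and Redmoon was 0.239 in embryos but only 0.061 in seed coat, which is less than the counting error of a single M11 seed coat library (0.096 to 0.109) and was not resolved at this depth. M11 minus Gold was −0.081 in embryos and 0.457 in seed coat, and Redmoon minus Gold was −0.320 and 0.396. The ratio was higher in embryo than in seed coat in each line, by 0.331 in M11, 0.153 in Redmoon and 0.869 in Gold. After an exchange of the seed coat labels it was higher by 0.549 for Redmoon embryos and by 0.473 for Gold embryos.

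**Figure D2:**
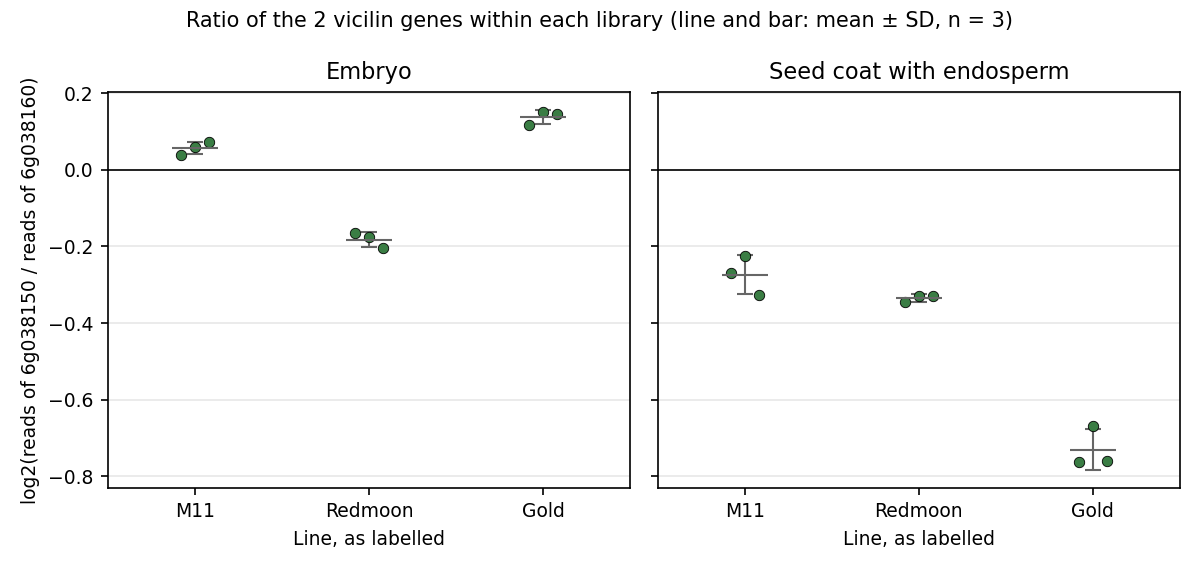
Log2 ratio of the counts of 6g038150 to those of 6g038160 in each library of M11, Redmoon and Gold, in embryos (left) and in seed coat with endosperm (right). Points are libraries, and lines and bars are the mean ± SD (n = 3). The ratio is above 0 in M11 and Gold embryos, below 0 in Redmoon embryos and in all seed coat libraries, and lowest in Gold seed coat.

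Among all counts on the 16 vicilin genes, the pair held a smaller share in M11 than in either cultivar. The share was 8.53% ± 0.044 in M11 embryos, 13.02% ± 0.078 in Redmoon embryos and 15.3% ± 0.619 in Gold embryos (SD, n = 3 each). In seed coat it was 5.89% ± 0.308 for M11, 12.9% ± 0.297 for Redmoon and 13.01% ± 0.506 for Gold. The M11 libraries, from 8.48% to 8.57% in embryos and from 5.54% to 6.12% in seed coat, lay below every cultivar library. Each of these 4 comparisons of M11 gave p = 0.1, the smallest that the exact permutation test of 3 against 3 allows (adjusted p = 0.129 over 9 comparisons). Shares of other vicilin genes were not tested, so the smaller share in M11 is not shown to be particular to this pair. Redmoon and Gold seed coat overlapped in the share (exact permutation p = 0.8), as did Redmoon embryos and Redmoon seed coat (exact permutation p = 0.6). When the seed coat labels were exchanged, Redmoon embryos minus Gold-labelled seed coat was 0.012 percentage points, again with overlap (exact permutation p = 0.9), and Gold embryos minus Redmoon-labelled seed coat was 2.36 percentage points, without overlap (p = 0.1, the smallest the exact test allows). The counts of the other 14 vicilin genes were also a smaller part of M11 embryos, at 12.8% ± 0.170 of all counts against 29.7% ± 0.957 in Redmoon and 29.98% ± 0.869 in Gold.

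**Figure D3:**
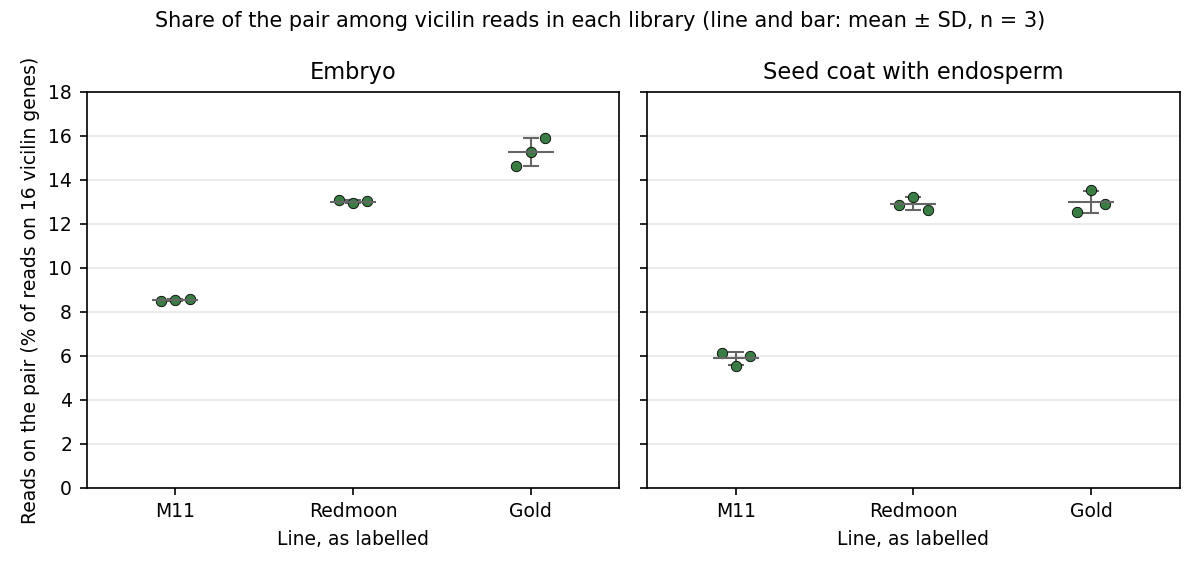
Counts on 6g038150 and 6g038160 together as a percent of the counts on all 16 vicilin genes in each library of M11, Redmoon and Gold, in embryos (left) and in seed coat with endosperm (right). Points are libraries, and lines and bars are the mean ± SD (n = 3). Every M11 library lies below every cultivar library, and the Redmoon and Gold seed coat libraries overlap.

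Most of the 14 other vicilin genes were lower in M11 as well, except in the comparison with Gold seed coat. Against Redmoon embryos, 11 of the 14 were called lower and 3 higher, and their median log2 fold change was −1.65, beside a median of 0.00 over all genes tested. Against Gold embryos, 10 were called lower, 3 higher and 1 was not called (median −2.41, all genes 0.01). Against Redmoon seed coat, 12 were called lower, 1 higher and 1 was not tested (median of the 13 tested −1.90, all genes 0.04). Against Gold seed coat the list was divided, with 5 lower, 7 higher, 1 not called and 1 not tested (median of the 13 tested 0.22, all genes −0.01). Of all genes tested, 32.1%, 37.1%, 34.2% and 36.9% were called lower in these 4 comparisons, in the order given. The count of vicilin genes lower than in Gold seed coat was thus near the share of all genes. Both members were below the median of the list in all 4 comparisons.

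The list spread widely around the pair. Against Redmoon embryos the lowest of the other genes was Lcu.2RBY.7g031150 (−3.18) and the highest was Lcu.2RBY.7g031050 (2.79). Against Gold embryos the lowest was again 7g031150 (−3.42) and the highest Lcu.2RBY.6g038600 (2.37), a gene with only 267 counts in all M11 embryo libraries and 17 in those of Gold. In seed coat the lowest against Redmoon was 7g031050 (−4.01) and the highest Lcu.2RBY.6g038550 (2.10), and against Gold the lowest was 7g031150 (−2.26), with 3 counts in M11 and 52 in Gold, and the highest 7g031050 (2.56). In each tissue 7g031050 was higher in M11 than in 1 cultivar and lower than in the other, and only by the labels as deposited did these cultivars change places between the tissues. The pair was lower than both cultivars in each tissue.

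**Figure D4:**
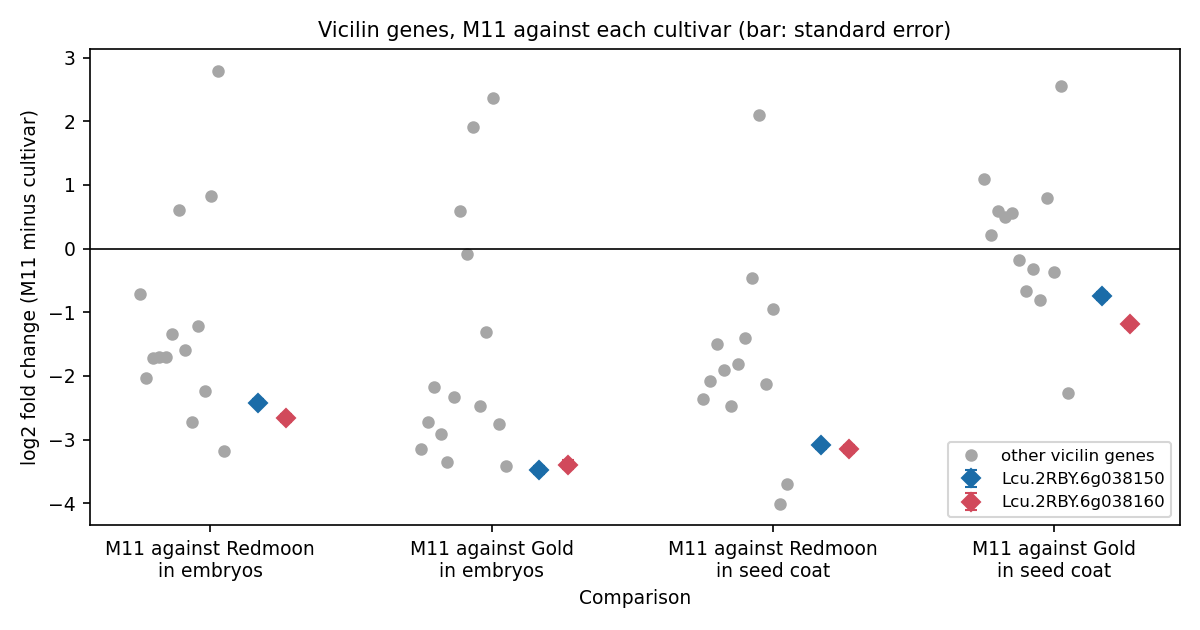
Log2 fold change of M11 over each cultivar for 6g038150 (blue), 6g038160 (red) and the other vicilin genes tested (grey), in embryos and in seed coat. Bars on the coloured points are standard errors from the fit and are mostly smaller than the symbols. The pair is below 0 in all 4 comparisons, and the grey points lie on both sides of 0 in each of them.

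Being called lower in M11 in all 4 comparisons was shared by 5 of the 16 vicilin genes, and by 11.2% of the 16746 genes tested in both tissues. These 5 were the pair, Lcu.2RBY.4g077560, Lcu.2RBY.6g038590 and 7g031150. The last 3 depended on settings that did not end the call of the pair, but the call of 6g038150 depended on another. With a log2 fold change of at least 1 required, 6g038150 and these 3 genes were no longer called against Gold seed coat, whereas 6g038160 was. With library totals as the only scaling, 4g077560 was at −0.10 against Gold seed coat (adjusted p = 0.11) and 6g038590 at −0.05 against Gold embryos (adjusted p = 0.469). The call of 7g031150 against Gold seed coat ended when M11 replicate 2 or 3 was left out (−1.70, adjusted p = 0.0528, and −1.66, adjusted p = 0.0574).

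The genes next to the pair by identifier did not share its pattern. Of the 5 identifiers below and the 5 above it on chromosome 6, 7 had 0 to 11 counts summed over the libraries of any group and were not tested. The other 3 had low levels, with group means between 5.03 and 75.3 CPM of library totals over all 6 groups. Lcu.2RBY.6g038130 had log2 fold changes of −0.18 (adjusted p = 0.0708) and −0.93 (adjusted p = 9.67e-10) in M11 embryos against Redmoon and Gold, and of −0.26 (adjusted p = 0.0521) and 0.41 (adjusted p = 0.0013) in seed coat. Lcu.2RBY.6g038170, the next identifier above the pair, had −0.27 (adjusted p = 0.00644) and −0.23 (adjusted p = 0.0365) in embryos, and 0.30 (adjusted p = 0.00243) and 0.60 (adjusted p = 2.93e-09) in seed coat. Lcu.2RBY.6g038180 had 0.41 (adjusted p = 5.36e-05) and 1.38 (adjusted p = 6.57e-12) in embryos, and −0.45 (adjusted p = 1.2e-08) and 0.48 (adjusted p = 1.97e-09) in seed coat. The embryo values of 6g038130 and 6g038170 were above 0 with library totals as the only scaling, at 0.46 and 0.37 against Redmoon and 0.33 and 1.03 against Gold. No neighbour was called lower in M11 in more than 2 of the 4 comparisons. The tissue differences of the neighbours were at most 1.95 on the log2 scale in either direction under TMM (6g038130 in Gold), beside 6.35 or more for the pair. They reached −2.91 with library totals alone (6g038180 in Gold, median of all genes −1.52), beside 5.46 or more for the pair. Under exchanged seed coat labels the largest was that of 6g038180 in Gold embryos, at −2.28 under TMM and −3.76 under library totals.

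Across the 18 libraries, each member was the gene most like the other. Likeness was measured as the SD of the log2 ratio of TMM-normalized CPM (0.5 CPM added to both) to the member, among 22080 other genes. This SD was 0.292 between the 2 members (Pearson r = 0.999 over 18 libraries, as a description, since the libraries share 6 groups and 2 tissues). The next genes for 6g038150 were Lcu.2RBY.4g011510 (SD 0.473) and Lcu.2RBY.5g050090 (SD 0.477), and for 6g038160 they were Lcu.2RBY.5g050180 (SD 0.367) and Lcu.2RBY.2g094220 (SD 0.426). None of these 4 is in the list of vicilin genes, and the sources used here do not pair them with names. The partner also ranked 1 for each member by Pearson r and after centring within each tissue (SD 0.185). After that centring, the next gene for both was Lcu.2RBY.2g009350 (SD 0.234 to 6g038150 and 0.187 to 6g038160), whose log2 fold change of embryo over seed coat was −1.08 for M11, −1.50 for Redmoon and 1.30 for Gold.

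The 4 genes most like a member by the SD were chosen over these same libraries, so that an order of lines like that of the pair follows largely from the choice, and their values are given as a description. In M11 against Redmoon embryos they had log2 fold changes from −2.91 (2g094220) to −1.98 (5g050090), and against Gold embryos from −4.17 (2g094220) to −2.38 (5g050180). In seed coat they were between −2.84 (2g094220) and −2.17 (5g050090) against Redmoon. Against Gold seed coat, 3 of the 4 were called lower, from −0.83 (5g050180) to −0.51 (2g094220), and 4g011510 was at 0.07 (adjusted p = 0.278). The fold change of 6g038160 against Gold seed coat, −1.19, was below all of these, and that of 6g038150, −0.74, was within their range.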

How the data were processed

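Paired-end RNA-seq libraries of polyadenylated RNA were made by the submitters from embryos and from seed coats with endosperm of M11, Redmoon and Gold, and samples were grouped by their labels. The authors deposited 6 tables of raw read counts, as whole numbers and without normalization. The submitters' processing notes name STAR 2.7.10, while the genome build, the counting tool, its use of strand and its handling of multi-mapping reads were not given in the sources used here. Differential expression was assessed with edgeR 4.0.16 in R 4.3.3 (filterByExpr, TMM, glmQLFit and glmQLFTest, Benjamini-Hochberg over all genes tested, adjusted p under 0.05), the 9 libraries of a tissue in 1 fit and all 18 in 1 fit for tissue contrasts and interactions. The SE of a log2 fold change was taken from the fold change and its F statistic. For ratios and shares, two-sided exact permutation tests were run in Python (scipy 1.17.1), adjusted over 9 comparisons each. The total count ranged from 3270275 to 24309401 per library, and counting errors cover sampling of reads only.

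The members and the gene lists were chosen with earlier results of these data known. The genes named were the 2 members, the lowest and highest of the other 14 vicilin genes of the study's list (and those sharing the pair's 4 calls, a count named after its values were seen), the neighbours called in at least 1 comparison among 5 identifiers on each side, and for each member the 3 genes with the smallest SD of the log2 ratio. The leading genes by the alternative measures of likeness were added after their values were seen. No markers of other cell types were used, since the sources do not pair the identifiers with names. The fits were tested on simulated data. Alternatives were DESeq2's size factors, DESeq2 1.42.0, library totals with and without the vicilin genes, other filters on low counts (none, or 10 counts in every library), a minimum log2 fold change of 1, other sets of libraries in the fit, a replicate block, exchanged seed coat labels, other denominators and each replicate left out. Sequences, gene lengths and the protein data were not analysed here.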

Additional observations from a re-analysis of the deposited data

Results flagged for a closer look

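By the labels as deposited, the difference between M11 and each cultivar depended on the tissue for both genes. The test was edgeR's interaction test in the fit of 18 libraries (Benjamini-Hochberg adjusted). For Lcu.2RBY.6g038150 the difference, embryo minus seed coat, was 0.68 against Redmoon (SE 0.10, adjusted p = 7.71e-08) and −2.64 against Gold (SE 0.10, adjusted p = 2.77e-30). For Lcu.2RBY.6g038160 it was 0.49 (SE 0.10, adjusted p = 3.92e-05) and −2.11 (SE 0.10, adjusted p = 6.57e-26), and for the sum of the pair 0.59 (SE 0.10, adjusted p = 1.18e-06) and −2.34 (SE 0.10, adjusted p = 1.82e-28). The 14 other vicilin genes had medians of 0.50 against Redmoon and −2.37 against Gold, so values of this size are not particular to the pair. For the pair, M11 was the lower line in each tissue and against each cultivar. The values of the pair thus concern the size of the difference and not its direction. They rest on the cultivar labels, which go against each other between the tissues in all 116 genes that are on in 1 cultivar only. With the seed coat labels exchanged the sign against Redmoon turned round. The values against Gold shrank to −0.34, −0.20 and −0.27 for 6g038150, 6g038160 and the sum, and 6g038160 was not called (adjusted p = 0.0968). With library totals alone in addition, the sign against Gold turned round too.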

How the results depend on the processing

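Each member and the pair sum were called in the reported direction in all 11 comparisons, and leaving out each library in turn ended none of these calls. In the order M11 against Redmoon and against Gold in embryos and then in seed coat, 6g038150 ranged from −2.44 to −2.40, −3.50 to −3.44, −3.15 to −3.03 and −0.82 to −0.68 without 1 library, and 6g038160 from −2.69 to −2.62, −3.43 to −3.36, −3.23 to −3.07 and −1.27 to −1.11. No pairing of the libraries by replicate number was detected (correlations of same-numbered libraries from −0.038 to 0.029 over 45 pairs). Whether same-numbered libraries share plants is not stated in the sources used here. The replicate block ended no call of the pair and left 11709, 13560, 13751 and 13968 genes called, against 11842, 13779, 13853 and 14105. Library totals alone put 85.8% and 87.8% of the calls of M11 against Redmoon and Gold embryos on the higher side, against 49.6% and 49.8% under TMM, and totals without the vicilin genes 70.5% and 81.8%. The share was 86.9% against 50.2% for Redmoon against Gold embryos and 62.3% against 52.1% for M11 against Redmoon seed coat. For embryo against seed coat in M11, Redmoon and Gold it was 37.9%, 31.9% and 17.9%, against 50.2%, 51.3% and 49.4%, and for the interactions with Redmoon and Gold 73% and 86.4%, against 43.4% and 50.8%. Under library totals 6g038160 was no longer called between Redmoon and Gold embryos (−0.12, adjusted p = 0.0877).

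With a log2 fold change of at least 1 required, the estimates stay as they are, but the calls ended for Redmoon against Gold embryos (6g038150 −1.06, 6g038160 −0.74, sum −0.89), for M11 against Gold seed coat (6g038150 −0.74, sum −1.004) and for the interaction with Redmoon (0.68, 0.49 and 0.59). That threshold left 2716, 5135 and 2069 genes called in embryos (M11 against Redmoon, M11 against Gold, Redmoon against Gold), 4543, 4295 and 3125 in seed coat, 10202, 11939 and 10458 between tissues (M11, Redmoon, Gold) and 2985 and 4732 in the interactions. At least 10 counts in every library, which leaves fewer genes to test, gave 7225, 8490 and 6791 in embryos, 8712, 9027 and 8706 between tissues and 6353 and 7185 in the interactions. With the seed coat labels exchanged the interaction with Redmoon was −1.63, −1.41 and −1.48 (6g038150, 6g038160, sum), and that of 6g038160 with Gold was −0.20. With library totals alone in addition, a setting chosen after seeing the data, they were −1.12, −0.91 and −0.98 with Redmoon and 0.71, 0.85 and 0.78 with Gold.

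As log2 ratios between groups, the share of the pair among vicilin counts was −0.61, −0.84, −1.13 and −1.14 for M11 against Redmoon and Gold in embryos and then in seed coat. Relative to the other 14 vicilin genes it was −0.68, −0.95, −1.24 and −1.26, and relative to all counts −1.90, −2.18, −2.96 and −0.92. Relative to all counts it was 2.04 for Redmoon against Gold seed coat and 6.59, 5.53 and 7.84 for embryo against seed coat in M11, Redmoon and Gold. With the seed coat labels exchanged, also chosen after seeing the data, it was 7.56 for Redmoon embryos and 5.81 for Gold embryos, and the log2 ratio within the pair was higher in embryos by 0.549 and 0.473. The shares of Redmoon and Gold seed coat overlapped, and the sign changed without 1 library (−0.036 to 0.020, with 0.0037 without Redmoon replicate 3 and 0.020 without Gold replicate 2), as it did between the tissues of Redmoon (−0.0023 to 0.030). The calls of the neighbours were less stable. With library totals 6g038130 was at 0.46 against Redmoon and 0.33 against Gold embryos, 6g038170 at 0.37 and 1.03, and the vicilin gene 6g035140 at 1.17 against Gold embryos, all above 0. With totals without the vicilin genes they were at 0.078 (6g038130, Redmoon), 0.63 (6g038170, Gold) and 0.76 (6g035140, Gold), and 6g035140 ran from −0.15 to 0.0045 when 1 library was left out, above 0 without Gold replicate 1. The cause of these changes was not tested beyond the shift of the median of all genes given with the embryo levels. The seed coat values of M11 rest on the fewest counts, which limits the ratio within the pair there.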
